A study of Homo sapiens with 6 samples.

Results

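ISG15 is a ubiquitin-like protein that is attached to other proteins, and the transcripts of this conjugation pathway were followed in UWB1.289 cells treated with Olaparib. The 6 genes were listed by name, and the rule itself uses no measured value, but they were chosen with earlier results of these data known. They are ISG15 itself, the activating enzyme UBA7, the conjugating enzyme UBE2L6, the ligase HERC5, its paralog HERC6 and the ISG15 protease USP18. Each symbol matched 1 of the 63677 Ensembl identifiers in the count table, and all 6 genes were among the 21729 genes that had more than 10 counts in total and were tested. UWB1.289 is an established human ovarian cancer cell line that lacks functional BRCA1, although the sample labels give its genotype as WT. Olaparib inhibits PARP1, an enzyme that marks DNA breaks with ADP-ribose chains. Poly(A) RNA was sequenced from 3 Olaparib samples (4 µM, 24 h) and 3 DMSO samples (the solvent alone, 24 h). All were grown as separate dishes of 1 cell line, so the p-values below refer to the spread between dishes. In edgeR that spread is drawn in part from all genes, so it can be understated for a gene that varies more than most. The design text of the series gives 10 µM in place of 4 µM. The libraries held between 35360458 and 39640775 counts.

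Interferons switch on the ISG15 pathway as a unit. Interferon receptors signal through JAK kinases to a complex that holds STAT2 and IRF9 and binds interferon-stimulated response elements in the promoters of target genes. The ISG15 protein is then activated by the E1 enzyme UBA7, passed to the E2 enzyme UBE2L6 and joined to lysines of target proteins by the HECT-type E3 ligase HERC5. In human cells HERC5 is the main ISG15 ligase, whereas HERC6 holds this role in mice. USP18 removes ISG15 from its targets and also blocks the interferon receptor chain IFNAR2, and free ISG15 stabilizes USP18.

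The promoters of 3 members are shown because the complex named above binds response elements in the promoters of target genes. They come from RefSeq on GRCh38.p14, which gave windows for 4 of the 6 members (ISG15, HERC5, HERC6 and UBE2L6, the last with more than 1 window, 5 windows in all) and none for UBA7 and USP18. Each sequence reads 5′ to 3′ on the strand of its gene, upstream of the RefSeq start of transcription, with any bases that GENCODE places in an exon left out. Those of ISG15 and HERC5 reach up to the start. For HERC6, the 113 bases nearest the start were left out in this way. Capitals mark the core of the interferon-stimulated response element, spelled GAAANNGAAA, on either strand.
ISG15, chr1:1013247-1013496, plus strand: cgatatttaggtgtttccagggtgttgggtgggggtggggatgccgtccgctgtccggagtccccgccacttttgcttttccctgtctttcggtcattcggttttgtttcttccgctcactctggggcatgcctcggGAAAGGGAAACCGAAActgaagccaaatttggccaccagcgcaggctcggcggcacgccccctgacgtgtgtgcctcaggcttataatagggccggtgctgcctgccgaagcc
HERC5, chr4:88456869-88457118, plus strand: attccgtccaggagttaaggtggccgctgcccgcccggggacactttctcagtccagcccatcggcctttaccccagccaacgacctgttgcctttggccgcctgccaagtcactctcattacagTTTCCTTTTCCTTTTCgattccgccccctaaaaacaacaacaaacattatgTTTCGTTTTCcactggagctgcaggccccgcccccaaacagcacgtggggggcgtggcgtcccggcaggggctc
HERC6, chr4:88378602-88378738, plus strand: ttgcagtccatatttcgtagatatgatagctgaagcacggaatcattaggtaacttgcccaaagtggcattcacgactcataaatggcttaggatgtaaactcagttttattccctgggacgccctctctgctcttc

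The ISG15 promoter held 2 matches to the core, on the gene's own strand, whose first bases lay 113 and 107 bases before the start, so that both share their middle GAAA. The HERC5 promoter held 3 matches on the opposite strand, beginning 125, 119 and 74 bases before the start, the first 2 of them overlapping. No match to these letters was found in the windows of HERC6 and UBE2L6. The UBE2L6 windows lie inside the gene as GENCODE places it, so bases upstream of its GENCODE start were not searched. Over all 35116 RefSeq promoter windows of 300 bases (250 before and 50 after the start), 3.57% held the core. The letters of the gamma-activated site (TTCNNNGAA, both strands), the element of interferon-gamma targets, which 7.66% of all windows held, were in none of the 5 member windows. These matches describe letters only, and binding was not measured.

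After Olaparib, 3 of the 6 members rose: ISG15, HERC5 and HERC6 (adjusted p under 0.05, edgeR quasi-likelihood test with Benjamini-Hochberg correction over all genes tested). Of all genes tested, 2.15% were called higher in this way, and 1.21% were called lower, with no member among the latter (0 also at an unadjusted p under 0.05 and with DESeq2). With DESeq2 only HERC6 passed, as it did in edgeR without Olaparib replicate 2, Olaparib replicate 3 or DMSO replicate 2, and no member passed edgeR's glmTreat test against a 1.2-fold change. Adding the requirement of a fold change above 1.2 left 2 members, HERC5 and HERC6, where 0.723% of all genes were called higher. The rises were small, with log2 fold changes of 0.25 to 0.45 for the 3 called members. UBA7, UBE2L6 and USP18 had log2 fold changes of 0.11, 0.11 and 0.17 and did not pass. The median log2 fold change of the 6 members was 0.209, beside -0.00422 for all genes tested. In bulk RNA, a change in RNA per cell and a change in the share of cells that carry it cannot be told apart.

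**Figure D1:**
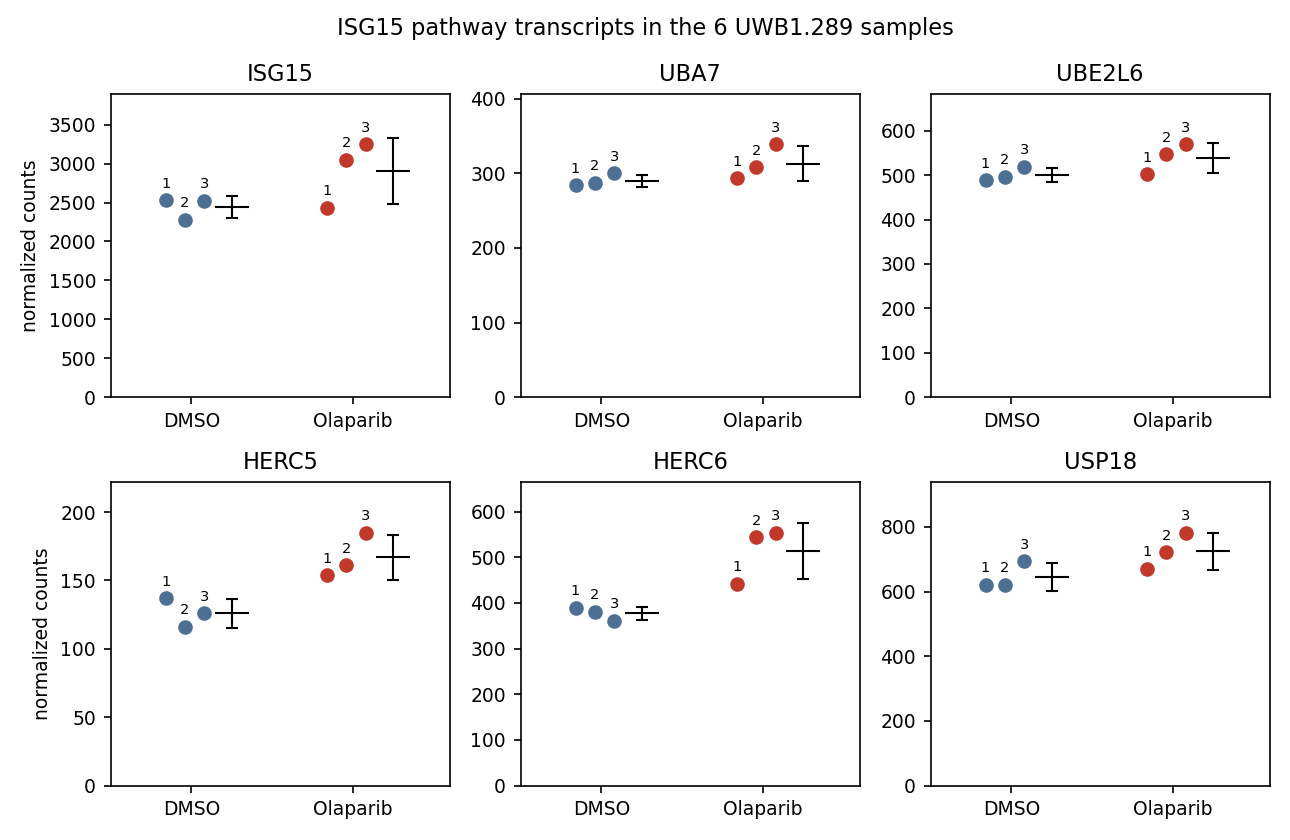
Normalized counts (y axis, from 0) of the 6 ISG15 pathway genes in the 3 DMSO (blue) and 3 Olaparib (red) samples, with replicate numbers above the points and the mean with SD as black lines. For HERC5 and HERC6 every red point lies above every blue point, and for ISG15 Olaparib replicate 1 (2436) lies among the DMSO samples.

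ISG15 (ENSG00000187608, chromosome 1, 1001138 to 1014540 on GRCh38, plus strand), the modifier itself, was by far the most abundant member. Its normalized counts, scaled to library size by edgeR's TMM method, were 2436, 3047 and 3251 in Olaparib replicates 1, 2 and 3, and 2531, 2282 and 2526 in DMSO replicates 1, 2 and 3. Olaparib replicates 2 and 3 were at 1.25 and 1.33 times the DMSO mean, whereas replicate 1 was at 0.996 of it, inside the DMSO range. The group means were 2911 ± 424 and 2447 ± 143 (SD, n = 3 each), and the log2 fold change was 0.25 (SE 0.06, 95% interval 0.13 to 0.37, edgeR adjusted p = 0.0113). The Olaparib samples varied by 14.6% of their mean and the DMSO samples by 5.83%, where counting error alone gives 1.86% and 2.01%. The edgeR SE, drawn in part from all genes, can understate a spread of this size. The call was lost with DESeq2 (adjusted p = 0.355) and with edgeR's robust dispersion (adjusted p = 0.501). It was also lost without Olaparib replicate 2, Olaparib replicate 3 or DMSO replicate 2 (log2 fold changes 0.22, 0.16 and 0.20 and edgeR adjusted p = 0.109, 0.16 and 0.138), whereas the log2 fold change was 0.36 without Olaparib replicate 1. An antisense pseudogene, ENSG00000231702, overlaps 4.15% of the exonic bases of ISG15.

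The enzymes that load ISG15 did not pass the test. UBA7 (ENSG00000182179, chromosome 3, 49805209 to 49813953, minus strand), the E1 enzyme, had 293, 308 and 339 normalized counts in Olaparib replicates 1, 2 and 3, against 284, 287 and 300 in the DMSO samples. Only Olaparib replicate 1 fell within the DMSO range. The log2 fold change of UBA7 was 0.11 (SE 0.0735, 95% interval -0.04 to 0.26, edgeR adjusted p = 0.542), so that changes from 0.972-fold to 1.2-fold lay within the interval. UBE2L6 (ENSG00000156587, chromosome 11, 57551656 to 57568284, minus strand), the E2 enzyme, had 502, 547 and 570 normalized counts in the Olaparib samples and 489, 496 and 519 in the DMSO samples. Here too, Olaparib replicate 1 lay inside the DMSO range and the other Olaparib samples lay above it. Its log2 fold change was 0.11 (SE 0.0572, 95% interval -0.01 to 0.22, edgeR adjusted p = 0.406).

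HERC5 and HERC6 lie next to each other on chromosome 4 on the same strand, with 14022 bases between them, and showed the largest rises of the pathway. HERC6 (ENSG00000138642, 88378739 to 88443097, plus strand) had 442, 544 and 554 normalized counts with Olaparib and 389, 381 and 361 with DMSO. The lowest Olaparib sample, replicate 1, stood above the highest DMSO sample. HERC6 rose from 377 ± 14.4 to 513 ± 61.6 normalized counts (SD, n = 3 each), which gave a log2 fold change of 0.45 (SE 0.0691, 95% interval 0.30 to 0.59, edgeR adjusted p = 7.5e-05). It also passed with DESeq2 (adjusted p = 0.000258) and without any single sample (log2 fold changes 0.39 to 0.54), but not in glmTreat against a 1.2-fold change (adjusted p = 0.579). HERC5 (ENSG00000138646, 88457119 to 88506163, plus strand) had the fewest counts of the pathway, with 154, 161 and 185 normalized counts in the Olaparib samples and 137, 116 and 126 in the DMSO samples. Its groups did not overlap either, as was so, with Olaparib higher, for 10.0% of all genes tested and for these 2 of the 6 members. HERC5 rose from 126 ± 10.6 to 167 ± 16.3 in the mean, and its log2 fold change was 0.40 (SE 0.109, 95% interval 0.18 to 0.62, edgeR adjusted p = 0.0311). The spread of HERC5 was close to counting error, 9.76% of the mean against 7.78% after Olaparib and 8.42% against 8.86% after DMSO. Its call was lost with DESeq2 (adjusted p = 0.108) and, in edgeR, without Olaparib replicate 2 (0.0610) or 3 (0.210) and without DMSO replicate 2 (0.167) or 3 (0.102).

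USP18 (ENSG00000184979, chromosome 22, 18150118 to 18177397, plus strand), the ISG15 protease, had 670, 721 and 782 normalized counts with Olaparib and 621, 621 and 694 with DMSO. DMSO replicate 3 lay above Olaparib replicate 1, so the groups overlapped. The means were 724 ± 56.2 and 645 ± 42.2 (SD, n = 3 each), and the log2 fold change was 0.17 (SE 0.0565, 95% interval 0.05 to 0.28). Its unadjusted p was 0.00588 and its edgeR adjusted p 0.11. Without Olaparib replicate 1, the log2 fold change was 0.22 and the edgeR adjusted p 0.0269. With USP18, 4 of the 6 members had an unadjusted p under 0.05 and a higher level after Olaparib, which held for 7.83% of all genes tested. The counts of USP18 carry an uncertainty of their own, because 18.8% of its 75-base stretches also occur in 3 other genes, USP41 and a pair of unnamed copies. For the other members, at most 0.704% of such stretches were shared with another gene.

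**Figure D2:**
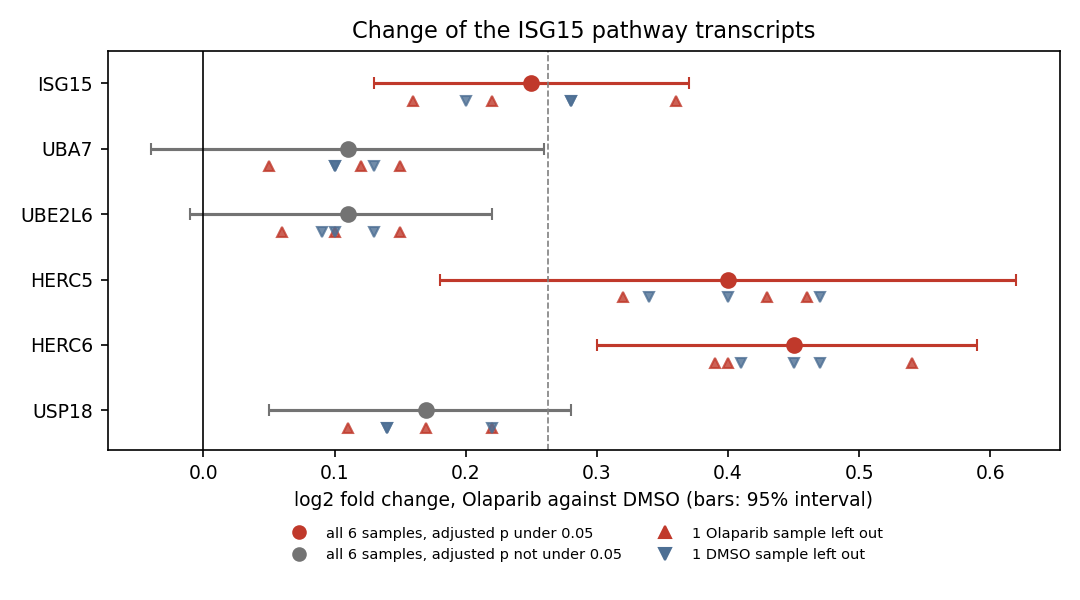
Log2 fold change of each ISG15 pathway gene (x axis, Olaparib against DMSO, bars the 95% interval), with triangles for the value when 1 Olaparib or 1 DMSO sample was left out and a dashed line at a 1.2-fold change. All values lie above 0, those of HERC6 without any 1 sample between 0.39 and 0.54, and those of ISG15 between 0.16 and 0.36.

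The Olaparib samples kept the same order in every member. Replicate 1 was the lowest and replicate 3 the highest of the Olaparib samples for all 6 genes, an order that 15.6% of all genes tested showed. Replicate 1 alone was the lowest for 34.7% of all genes tested. The DMSO samples had no such common order, with replicate 3 the highest for UBA7, UBE2L6 and USP18 and the lowest for HERC6. Olaparib replicates 1, 2 and 3 held 37186909, 36683745 and 37686666 counts. The part that differences between dishes have in the results was not tested.

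Per length of transcript, the modifier stood far above its enzymes. Levels were taken as CPM (counts scaled to a common library size) divided by the exonic length in kilobases, and averaged 75.4 ± 4.4 for ISG15 after DMSO (SD, n = 3). The E2 enzyme UBE2L6 came next at 6.5, ahead of the protease USP18 at 4.21. HERC6 and UBA7 followed at 1.74 and 1.71, levels that did not differ beyond the spread between the DMSO samples, and HERC5 was last at 0.708. After Olaparib the levels were 89.7 ± 13.1 for ISG15, 6.99 for UBE2L6, 4.73 for USP18, 2.37 for HERC6, 1.84 for UBA7 and 0.934 for HERC5. In this order HERC6 stood clear of UBA7, the lowest HERC6 sample being above the highest UBA7 sample.

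**Figure D3:**
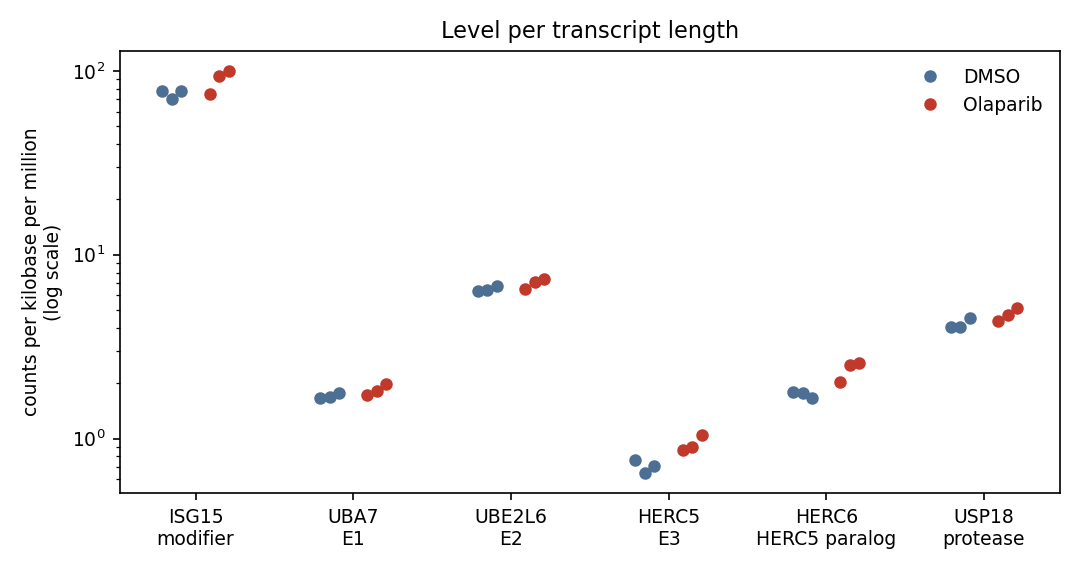
CPM per kilobase of exon (y axis, log scale) of each ISG15 pathway gene in each DMSO (blue) and Olaparib (red) sample, replicates 1 to 3 from left to right. ISG15 lies above 70 in every sample, more than 10 times above UBE2L6, the next gene, and HERC5 is the lowest.

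Within each sample, the enzymes were also set against ISG15 on the log2 scale of level per length. HERC6 stood 43.2-fold below ISG15 after DMSO and 37.7-fold below it after Olaparib, a difference of 0.20 between the log2 ratios, with no overlap between the groups. The exact two-sided permutation test gave p = 0.1, the smallest value that 3 samples against 3 allow. The other ratios overlapped between the groups. HERC5 stood 107-fold and 95.6-fold below ISG15 (difference 0.16, exact permutation p = 0.2), and USP18 17.9-fold and 18.9-fold below it (difference -0.08, exact permutation p = 0.4). For UBE2L6 the distances were 11.6-fold and 12.8-fold, and for UBA7 44.2-fold and 48.5-fold (differences -0.14 each, exact permutation p = 0.3 each). After Benjamini-Hochberg adjustment over the 5 ratios, the p-values were 0.375 to 0.4. At 3 samples against 3 this test cannot pass the threshold, so these p-values do not show that the ratios were alike.

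Relatives of the members were followed by family. Of 141 other tested genes in the 5 protein families to which the members belong, 7 rose and none fell (edgeR adjusted p under 0.05, as did 2.15% and 1.21% of all genes tested). Over the 141 genes the log2 fold changes had a median of 0.0122. Among the 9 other E1 enzymes none passed in edgeR, DESeq2 or limma (0 with an unadjusted p under 0.05), and UBA7 stood above all of them. UBA1, the main E1 of ubiquitin and the relative of UBA7, had a log2 fold change of -0.00096 (edgeR adjusted p = 0.989). UBE2L3, the E2 most like UBE2L6, had 0.021 (edgeR adjusted p = 0.861), and 3 of 38 tested E2 genes rose (UBE2C, UBE2S and BIRC6). UBE2L6 was exceeded in log2 fold change by 5 of them, these 3, CDC34 and UBE2QL1, the last with 22 counts in total. Of 26 other HECT ligases, 1 (HECW2) had a larger log2 fold change than HERC5 and HERC6. The other HERC genes, HERC1 to HERC4, had log2 fold changes of 0.045, -0.094, -0.088 and -0.024, none past the test. HERC3 lies in the same region of chromosome 4 as HERC5 and HERC6.

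Among 47 tested USP proteases only USP24 passed, with USP18 exceeded by 2 of them, USP24 and USP6. USP6 had group means of 2.72 (Olaparib) and 2.31 (DMSO) normalized counts. Of the 21 tested ubiquitin-like modifiers, none rose or fell in edgeR, DESeq2 or limma (3 had an unadjusted edgeR p under 0.05, all higher) and none had a log2 fold change above that of ISG15. UBB, a ubiquitin precursor, had 0.054 (edgeR adjusted p = 0.4) and NEDD8, the modifier of cullins, -0.0033. UBD (FAT10), another cytokine-induced modifier, had 0 counts in all 6 samples.

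**Figure D4:**
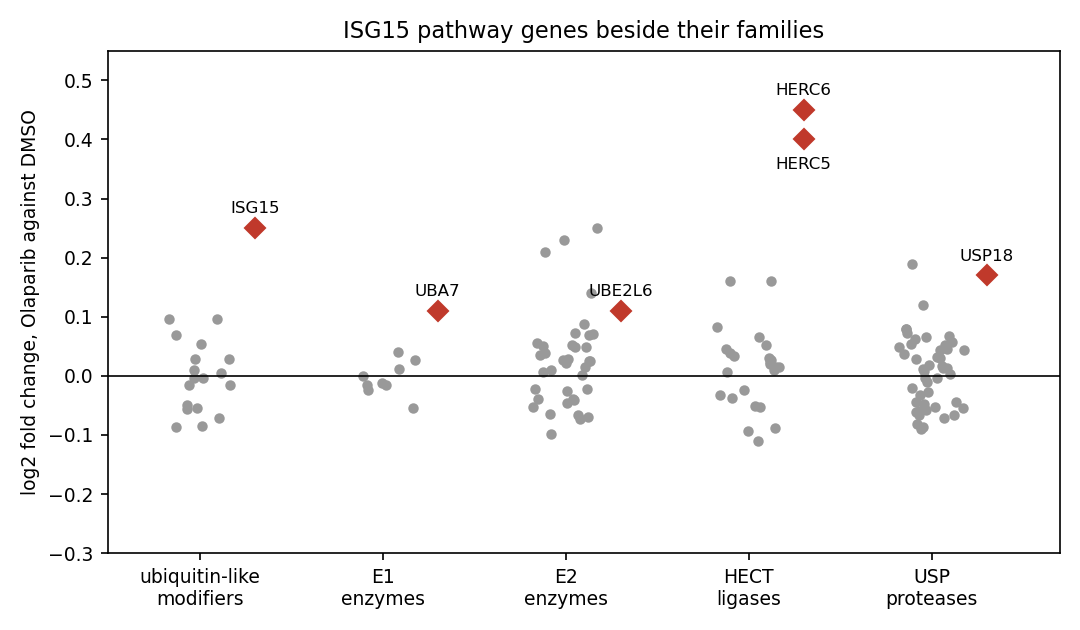
Log2 fold change (y axis, Olaparib against DMSO) of the ISG15 pathway genes (red diamonds) and of the other members of their families (grey points, 1 per gene with at least 300 counts in total). UBA7 at 0.11 lies above the E1 enzymes plotted (-0.055 to 0.04) and HERC5 at 0.40 and HERC6 at 0.45 above the HECT ligases plotted, while HECW2 has too few counts to be drawn. UBE2L6 at 0.11 lies within the range of the E2 enzymes plotted (-0.099 to 0.25), and USP18 at 0.17 within that of the USP proteases (-0.09 to 0.19).

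The proteins that ISG15 or USP18 work with were followed through 15 tested genes of a list of 16, which holds further ISG15 ligases, further proteases that act on ISG15, ISG15 receptors and the interferon receptor parts bound by USP18. Of these, 1 rose and none fell, where 2.15% and 1.21% of all genes tested did, and the median log2 fold change was 0.0162. USP24, a ubiquitin protease reported to cleave ISG15 as well, had 4188, 3924 and 3920 normalized counts with Olaparib and 3541, 3646 and 3356 with DMSO. All Olaparib samples of USP24 lay above all DMSO samples. Its log2 fold change was 0.19 (SE 0.0382, edgeR adjusted p = 0.00206), and the call was lost without DMSO replicate 3 (0.0534). TRIM25 and ARIH1, ligases reported to attach ISG15 to single targets, had log2 fold changes of 0.062 (edgeR adjusted p = 0.336) and -0.04 (edgeR adjusted p = 0.699). IFNAR2, the receptor chain that USP18 blocks, had 0.042 (edgeR adjusted p = 0.825), and STAT2, which brings USP18 to IFNAR2, had 0.08 (edgeR adjusted p = 0.399). ITGAL, a chain of the receptor for secreted ISG15 on lymphocytes, had 13 counts in total.

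Among 23 genes whose proteins are reported to carry ISG15, 6 rose and none fell (2.15% and 1.21% of all genes tested), with a median log2 fold change of 0.0254. The largest rises were those of MX1, an antiviral GTPase, from 289 ± 63.1 to 596 ± 174 normalized counts, and of IFIT1, which binds viral RNA, from 175 ± 22.5 to 359 ± 101 (SD, n = 3 each). Their log2 fold changes were 1.05 and 1.04 (edgeR adjusted p = 1.22e-06 each), both above those of HERC6 and ISG15. IFIT3, the partner of IFIT1, followed at 0.53 (edgeR adjusted p = 7.5e-05). The RNA sensor IFIH1 at 0.23 and the kinase EIF2AK2 at 0.16 rose as well (edgeR adjusted p = 0.00376 and 0.00386). MX1 and IFIT1 varied widely between the Olaparib samples and missed the threshold with edgeR's robust dispersion (adjusted p = 0.247 and 0.205). In edgeR, IFIH1 missed it without Olaparib replicate 3 (0.085) or DMSO replicate 2 (0.0565), and EIF2AK2 without DMSO replicate 2 (0.0973). These 5 genes are themselves interferon-induced, and the list was drawn up with earlier results of these data known.

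Of 20 tested genes of a list of 26 for interferon ligands, receptors and their signaling, 3 rose and none fell (2.15% and 1.21% of all genes tested). IRF7, the factor that amplifies type I interferon, had 694, 838 and 843 normalized counts with Olaparib and 607, 588 and 654 with DMSO. As in the ISG15 pathway genes, Olaparib replicate 1 was the lowest and replicate 3 the highest. Its log2 fold change was 0.36 (SE 0.0599, edgeR adjusted p = 0.00019). SOCS3, an inhibitor of cytokine receptors, had 0.35 (edgeR adjusted p = 0.00777), a call that was lost without DMSO replicate 1 (edgeR adjusted p = 0.0583). IRF9, which binds the response element together with STAT2, had -0.089. Among the ligands, IFNE had 203 counts in total over the 6 samples and a log2 fold change of -0.24, which did not pass, while IFNB1 had 11 counts, IFNG 6 and IFNA1, IFNK and IFNL3 0.

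The genes around the members on the chromosomes did not pass. Of the 10 nearest tested protein-coding neighbours that are not members, none had an adjusted p under 0.05 in edgeR, DESeq2 or limma, and 2 had an unadjusted edgeR p under 0.05, 1 higher and 1 lower. Beside ISG15, HES4 had a log2 fold change of 0.13 (edgeR adjusted p = 0.236) and AGRN -0.029. The pair of HERC5 and HERC6 is flanked by PYURF at 0.027 and PPM1K at -0.20 (edgeR adjusted p = 0.0824). UBA7 lies between INKA1 at 0.81 (edgeR adjusted p = 0.469, at mean normalized counts of only 8.79 and 5.0) and TRAIP at 0.027. UBE2L6 lies between TIMM10 at 0.0042 and SERPING1 at 0.63 (edgeR adjusted p = 0.595, with means of 7.73 and 4.91). USP18 has TUBA8 at -0.16 and DGCR6 at 0.031 as neighbours.

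Likeness to ISG15 was measured as the root mean square distance between log2 levels over the 6 samples, each gene set to its own DMSO mean. Among 13121 genes with a mean of at least 50 raw counts, the median distance was 0.227. The closest genes were RGMA (0.0551), ATRNL1 (0.0564), PARP9 (0.0612), CERS1 (0.0637) and TRANK1 (0.0673). PARP9, an interferon-induced member of the PARP family, rose by a log2 fold change of 0.31 (edgeR adjusted p = 0.00152, DESeq2 0.118), whereas the other 4 did not pass (edgeR adjusted p = 0.069 to 0.542). USP18 was the closest member, at place 40 (0.101), ahead of UBE2L6 (225), UBA7 (233), HERC5 (301) and HERC6 (709). With the largest difference over the samples as the measure, 2 of the 5 closest genes were the same (RGMA and CERS1).

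The labelled cell type was checked against marker genes. Epithelial markers of ovarian carcinoma summed to between 13019 and 13682 CPM after Olaparib and between 12839 and 13278 after DMSO, with 9 of 10 genes past the count filter and WT1 at 8 counts in total. PAX8, a transcription factor of the Müllerian epithelium, passed among them with a log2 fold change of 0.10 (edgeR adjusted p = 0.0399), which was lost in 5 of the 6 fits that left out 1 sample. Leukocyte markers, of which 6 of 12 were tested, summed to 3.72 to 4.27 CPM after Olaparib and 2.99 to 3.8 after DMSO. None passed in edgeR, DESeq2 or limma, and 1, CD14, had an unadjusted edgeR p under 0.05. PTPRC and CD14 were present, with 403 and 261 counts in total, and CD3D, NKG7 and LILRA4 were at 0. The log2 fold change of CD14 was 0.42 (edgeR adjusted p = 0.26), with means of 49.9 (Olaparib) and 37.4 (DMSO) normalized counts. Fibroblast and endothelial markers, of which 4 of 9 were tested, summed to 49.2 to 51.0 and 51.4 to 53.5, with LUM and PECAM1 at 0. Most of this sum came from CDH5, an endothelial cadherin, with 9404 counts in total and means of 1526 (Olaparib) and 1606 (DMSO) normalized counts, and COL1A1 had 1717 counts in total. VWF alone passed among them (log2 fold change 0.68, edgeR adjusted p = 0.0106, DESeq2 0.071, and 0.051 in edgeR without DMSO replicate 1). The part of other cells in the rises of ISG15, HERC5 and HERC6 was not tested.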

How the data were processed

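RNA of 6 UWB1.289 samples, 3 with Olaparib and 3 with DMSO, was assigned to groups by the sample labels. The authors mapped reads to GRCh38 with STAR and assigned them to genes of Ensembl release 96 with featureCounts, and the deposited values are raw read counts, whole numbers for each gene. PCR duplicates were identified with Picard. Whether they were removed, and the strand setting of featureCounts, are not given in the sources used here, so counts of overlapping genes and near-identical copies are uncertain. Total counts were 35360458 to 39640775 per sample, and replicates of a group differed by more than sampling noise (chi-square per degree of freedom 1.81 to 4.11).

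Genes with more than 10 counts in total were normalized (TMM) and tested with edgeR 4.0.16 in R 4.3.3 (quasi-likelihood F-test, no block, Benjamini-Hochberg over 21729 genes). The threshold was an adjusted p of 0.05, and for differential expression also a fold change of 1.2. Symbols, coordinates and exonic lengths came from GENCODE 44, which held 81.9% of the identifiers. Alternatives were DESeq2 1.42.0, limma 3.58.1 (voom, trend), other edgeR settings, scalings and filters, a replicate block and leaving out each sample. The procedure was tested on simulated counts with planted changes larger than those of the members, so that test does not cover changes of their size.

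The members and gene lists were chosen with earlier results of these data known, the lists from general knowledge. Genes named are all members, list genes that passed or had at most 10 counts in total (at most 8 per list), relatives of the members, neighbours and the 5 genes closest to ISG15. Further relatives, partners and signaling genes were picked once their values had been seen (such as HERC1, NEDD8, TRIM25, ARIH1, STAT2, IFNAR2, IRF9, IFNE, ITGAL, USP6, CDC34 and UBE2QL1). So were the markers CDH5, COL1A1, PTPRC and CD14. USP27X was not matched, and some genes that this rule covers are not reported here. Protein sequences were not analysed here.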

Additional observations from a re-analysis of the deposited data

How the results depend on the processing

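No member changed direction under any of the 16 alternatives. HERC6 passed in 15 of 16, ISG15 and HERC5 in 10 each, USP18 in 2, and UBA7 and UBE2L6 in 0. Among the 6 members, 3 passed with all samples, 1 with DESeq2 and 0 with glmTreat, which tests against a 1.2-fold change. Differentially expressed members numbered 2 with all samples, 1 with DESeq2 and 0 with glmTreat. Adjusted p under glmTreat was 0.579 for HERC6 (log2 fold change 0.45) and 1.0 for ISG15 (0.25) and HERC5 (0.40). ISG15 also missed the threshold with DESeq2 (0.25, adjusted p = 0.355) and with robust dispersion (0.25, adjusted p = 0.501), and HERC5 with DESeq2 (0.40, adjusted p = 0.108).

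When each sample was left out in turn, 1 to 4 members passed and 1 to 3 were differentially expressed. HERC6 alone passed without Olaparib replicate 2, Olaparib replicate 3 or DMSO replicate 2, and ISG15 and HERC6 without DMSO replicate 3. Log2 fold changes ran from 0.16 to 0.36 for ISG15, 0.32 to 0.47 for HERC5, 0.39 to 0.54 for HERC6 and 0.11 to 0.22 for USP18. The partner list gave 0 to 1 calls and the families 5 to 9. Under glmTreat the partner list had 0 calls (1 in the main test), the families 0 (7), the reported ISG15 substrates 2 (6) and the interferon signaling list 0 (3). Apart from fewer samples and, for glmTreat, the stricter null, the cause was not tested.

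The deviations of same-numbered samples from their group means correlated at -0.00978, 0.0755 and -0.00259, so the values showed no pairing by replicate number. These correlations cannot tell whether same-numbered dishes were handled together. With the replicate block, 4 members passed, USP18 being added (log2 fold change 0.17, adjusted p = 0.0200), and 12 family genes against 7. The share of all genes called is given for the main fit only. Counts of members under the alternatives therefore do not set the members apart from other genes. With 1 mismatch allowed in the response element, 33.0% of all promoter windows matched, and 2 members as before. The protein comparison was not run.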

Other observations

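Among relatives of the ISG15 enzymes, the E2 enzymes UBE2C and UBE2S, which serve the anaphase-promoting complex in mitosis, rose after Olaparib by the same edgeR quasi-likelihood test with Benjamini-Hochberg correction. UBE2C had 8660, 8561 and 8607 normalized counts with Olaparib and 7196, 7143 and 7442 with DMSO, and its log2 fold change was 0.25 (SE 0.0296, adjusted p = 1.18e-06 in edgeR). UBE2S went from 2568 ± 38.6 to 2968 ± 128 normalized counts (SD, n = 3 each), and its log2 fold change was 0.21 (adjusted p = 0.00125 in edgeR). Olaparib replicate 1 was the highest Olaparib sample for UBE2C and the lowest for UBE2S.

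BIRC6, a very large E2 with ligase activity that restrains apoptosis, showed a log2 fold change of 0.23 (adjusted p = 0.00019 in edgeR). For BIRC6, Olaparib replicate 1 was the highest Olaparib sample, where it was the lowest for all 6 ISG15 pathway genes. HECW2, a HECT ligase, rose from 31.0 ± 0.537 to 49.2 ± 7.44 normalized counts (adjusted p = 0.0448 in edgeR), and its adjusted p was 0.0746 with limma voom and missed the threshold in 5 of the 6 fits that left out 1 sample.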
